A study of Arabidopsis thaliana with 14 samples.

Results

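The transcripts described here are those that lay lower on KAR1 than on water in every pair of Arabidopsis thaliana seed samples of the study. KAR1 is a karrikin, a butenolide formed when plant material burns. The groups were ga1-3 seed on KAR1 (3 arrays), ga1-3 seed on water (3 arrays), wild type Landsberg erecta seed on KAR1 (4 arrays) and wild type seed on water (4 arrays). All seed was primary dormant, came from plants in continuous light, and was imbibed for 24 h at 20 C under 100 uE of white light on 0.8% agar, with KAR1 at 1 uM or without it. The ga1-3 mutant cannot make enough gibberellin to germinate. Its ecotype is not stated in the labels. Seed batches carry the letters A to C in ga1-3 and A to D in wild type. Within a genotype, arrays with the same letter come from 1 seed harvest, so the data hold 7 pairs of KAR1 and water.

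A probe set, the group of probes that reports 1 transcript, was taken when its log2 intensity on KAR1 minus that on water was under 0 in all 7 pairs and averaged -0.25 or lower. Intensities under 16 were first raised to 16 (log2 4). Only probe sets with 1 annotated gene counted, and HAT2, XERICO, HIS1-3, COR27, AT4G33980 and AT1G03890 were left out by name. The rule found 90 of 22746 probe sets, which stand for 89 of 13287 genes with a probe set of their own, and its limit of 200 was not reached. Without the conditions on gene names 184 probe sets met it, or 0.809% of all, and 91 of these had no single gene. The mirror rule, with all 7 differences above 0, found 113 with 1 gene. The transcripts were chosen by their KAR1 minus water differences, so these are given below as a description, and no test of them is used.

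Karrikins are perceived in plants by the receptor KAI2, which acts with the F-box protein MAX2 to remove repressor proteins of the SMXL family. In dormant Arabidopsis seed the outcome is easier germination, which still needs newly made gibberellin and light. Abscisic acid acts against germination. The reference table names 13 of the 90 probe sets by a symbol, and gives LKR/SDH as a synonym for AT4G33150. The others carry a locus only, and no role is given for them. All 90 are protein coding.

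The tissue label was set against storage transcripts. Of the markers fixed for this, 0 of 12 for seed reserves and 0 of 3 for endosperm were measured by a probe set with 1 gene. For seed coat and for leaf it was 1 of 3 each. PAP85 and OLEO3 were no fixed markers and come from another list, of which 2 of 14 genes were measured, so the planned check of seed tissue could not be made. The seed storage protein gene PAP85 lay between 22843.9 and 26166.1 in intensity on the 14 arrays and the oleosin gene OLEO3 between 2190.3 and 2935.1. The seed coat gene BAN stayed between 4.5 and 7.2 and the leaf gene RCA between 10.2 and 32.8. Median intensity per array ran from 10.4 to 12.6. RNA came from whole seed, so fewer cells of a type and less RNA per cell cannot be told apart.

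The differences on KAR1 were small. The mean of the 7 differences had a median of -0.32 over the 90 probe sets, against 0.00 over all 22746 and -0.01 over the 9592 that lay at 16 or more on all arrays. Only 4 of the 90 averaged 1.5-fold lower or more, and 25 averaged 1.3-fold lower or more. In level they ran from AT4G37180 at a mean log2 intensity of 4.80 to AT3G21380 at 12.01. Their median level was 7.42, and that of the 9592 detected probe sets 7.37. At 16 or more on all arrays were 86 of the 90.

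AT2G15960 had the lowest mean difference, -0.84 ± 0.66 (SD, n = 7 pairs), or 1.79-fold lower on KAR1. In ga1-3 its log2 intensities were 7.63, 8.0 and 7.91 on KAR1 in batches A to C, against 9.49, 8.56 and 8.39 on water. In wild type they were 9.87, 9.59, 9.07 and 7.97 on KAR1 in batches A to D, against 10.46, 9.71, 9.66 and 9.64 on water. The ga1-3 groups did not overlap, the wild type groups did, and the differences of ga1-3 batch A (-1.86) and wild type batch D (-1.67) stood apart from the other 5, which lay between -0.59 and -0.11.

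Among the transcripts of metabolic enzymes, AT4G33150 was lowered most. It encodes the bifunctional enzyme LKR/SDH, which opens the breakdown of lysine. Its wild type values were 4.98, 6.10, 5.69 and 5.62 on KAR1 in batches A to D, against 6.37, 6.64, 6.44 and 6.51 on water, with no overlap. In ga1-3 they were 6.02, 4.92 and 5.34 on KAR1 in batches A to C, against 6.42, 5.55 and 5.57 on water, with overlap. The mean difference was -0.42 in ga1-3 and -0.89 in wild type. The deepest of the 7 was -1.38, in wild type batch A.

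HPR, the peroxisomal hydroxypyruvate reductase of photorespiration, averaged -0.41 ± 0.21 (SD, n = 7 pairs). Its ga1-3 arrays read 8.85, 8.30 and 8.48 on KAR1 and 9.54, 8.77 and 8.68 on water. Its wild type arrays read 8.34, 8.76, 8.28 and 8.04 on KAR1 and 8.75, 8.87, 8.65 and 8.64 on water. Both genotypes overlapped between treatments, because batch A of ga1-3 and batch B of wild type were high on KAR1. UGT76C1, a glucosyltransferase that inactivates cytokinins, averaged -0.41 ± 0.19 from a low level, at group means of 5.26 on KAR1 and 5.78 on water in ga1-3 and of 4.57 on KAR1 and 4.89 on water in wild type. GLX2-5, a glyoxalase that clears products of methylglyoxal, averaged -0.28 ± 0.12 at high levels, with group means of 9.81 on KAR1 and 10.12 on water in ga1-3 and 10.76 on KAR1 and 11.01 on water in wild type.

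The clock gene GI, whose protein links the circadian clock to flowering time and light, averaged -0.43 ± 0.26 (SD, n = 7 pairs), 1.35-fold lower on KAR1. It read 7.74, 7.89 and 8.01 on KAR1 in ga1-3, against 8.02, 8.32 and 8.15 on water. In wild type it read 6.04, 6.91, 7.02 and 7.26 on KAR1, against 6.61, 7.85, 7.39 and 7.54 on water. The ga1-3 groups did not overlap, by a margin of 8.02 against 8.01. In wild type, batch A lay lowest on both treatments. Of the 21 clock genes listed for this work, 3 were measured by a probe set with 1 gene. The other 2 are among those left out by name: AT4G33980 averaged -0.55 and was lower on KAR1 in 7 of 7 pairs, and COR27 averaged -0.66 and was lower in 6 of 7. PIFI, a chloroplast protein of the electron flow that follows illumination, averaged -0.31 ± 0.12.

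Regulators of other proteins formed a group of 3. SKP2A, an F-box protein that marks cell cycle regulators for breakdown, averaged -0.30 ± 0.20. UBP15, a protease that removes ubiquitin, averaged -0.28 ± 0.20. SIZ1, a ligase that attaches SUMO to other proteins, averaged -0.25 ± 0.16 and lay just inside the rule. A second probe set of SIZ1, at a mean level of 8.35 against 6.67, averaged -0.02 and ranged from -0.22 to 0.13, so both measures of this gene do not show the same difference.

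Transcription factors with a symbol were LHW and bHLH121. LHW, a bHLH factor of vascular development in roots, read 7.37, 7.08 and 7.00 on KAR1 in ga1-3, against 7.46, 7.38 and 7.57 on water. In wild type it read 5.76, 5.90, 5.91 and 5.75 on KAR1, against 5.98, 6.11, 6.31 and 6.17 on water. Neither genotype overlapped between treatments, by margins of 7.38 against 7.37 in ga1-3 and 5.98 against 5.91 in wild type. bHLH121, a regulator of iron uptake, had the smallest spread over the 7 pairs of all 90, at -0.28 ± 0.09, with differences from -0.42 to -0.19.

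EXLA1 belongs to the expansin-like proteins of the cell wall. It averaged -0.37 ± 0.22, with group means of 10.11 on KAR1 and 10.56 on water in ga1-3 and of 10.02 on KAR1 and 10.34 on water in wild type. SAG29, also called SWEET15, exports sugar from cells. It averaged -0.26 ± 0.17. In wild type most of its arrays lay at or near the floor, with batches B to D between 4.0 and 4.07 on KAR1. The floor limits the differences there, so the mean rests more on ga1-3. IQD28, of a family of calmodulin-binding proteins, averaged -0.25 ± 0.21, with -0.46 in ga1-3 and -0.09 in wild type.

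Among the transcripts named by locus only, AT5G47020 averaged -0.65 ± 0.31 and AT5G13240 -0.63 ± 0.44. AT5G47020 read 6.45, 6.16 and 6.34 on KAR1 in ga1-3, against 7.26, 6.85 and 7.30 on water, and 5.46, 6.77, 6.41 and 6.42 on KAR1 in wild type, against 6.50, 7.22, 6.63 and 6.80 on water. Its ga1-3 groups lay clear of each other. In AT5G13240 the difference of ga1-3 batch A was -1.55 and the others lay between -0.74 and -0.26. AT3G27350 was similar, with -1.63 in that batch and -0.68 to -0.01 in the others.

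**Figure D1:**
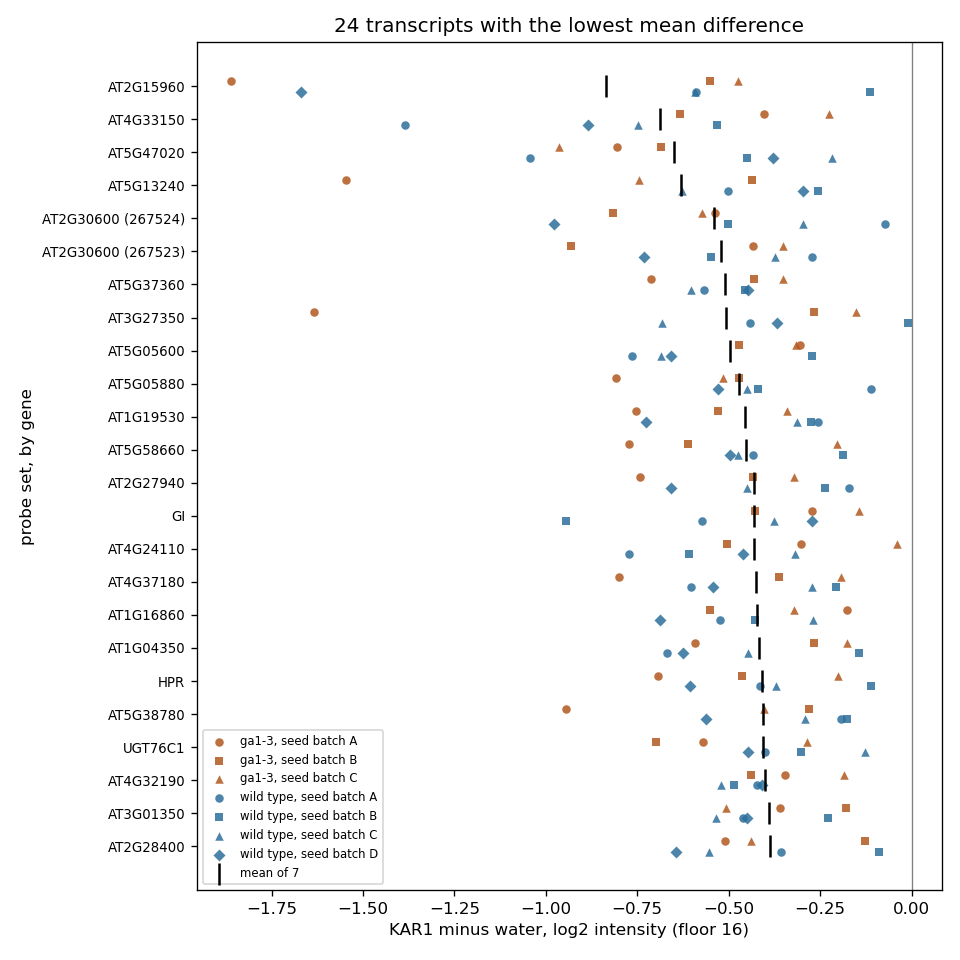
KAR1 minus water in log2 intensity (horizontal) for the 24 probe sets with the lowest mean difference (vertical, by gene), with 1 point per seed batch, ga1-3 in brown and wild type in blue, and a bar at the mean of 7. All points lie under 0, as the rule demands; AT2G15960, AT5G13240 and AT3G27350 each have ga1-3 batch A far to the left of most others.

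AT2G30600 was the only gene with both of its probe sets among the 90. Their means were -0.54 ± 0.30 and -0.52 ± 0.24. They read other probes on the same arrays and are not independent samples. In ga1-3 batch B they gave -0.82 and -0.93, in wild type batch D -0.98 and -0.73, and in wild type batch A -0.07 and -0.27. For AT5G24710 the second probe set averaged -0.09 with a range from -0.61 to 0.28, at a mean level of 4.43 against 5.85, against -0.30 for the one chosen. Apart from these and SIZ1, no gene of the 89 had a further probe set with 1 gene.

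Gene pairs next to each other in the TAIR10.1 gene table appeared in 2 cases. UGT76C1 (AT5G05870) has AT5G05880 as its direct neighbour, which averaged -0.47 ± 0.20 on KAR1. AT3G03230 and AT3G03240 are also direct neighbours and averaged -0.34 ± 0.29 and -0.32 ± 0.23. In ga1-3 batch A these neighbours differed, with -0.95 for AT3G03230 and -0.04 for AT3G03240, where AT3G03240 was at or near the floor on both arrays (4.0 on KAR1, 4.04 on water).

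**Figure D2:**
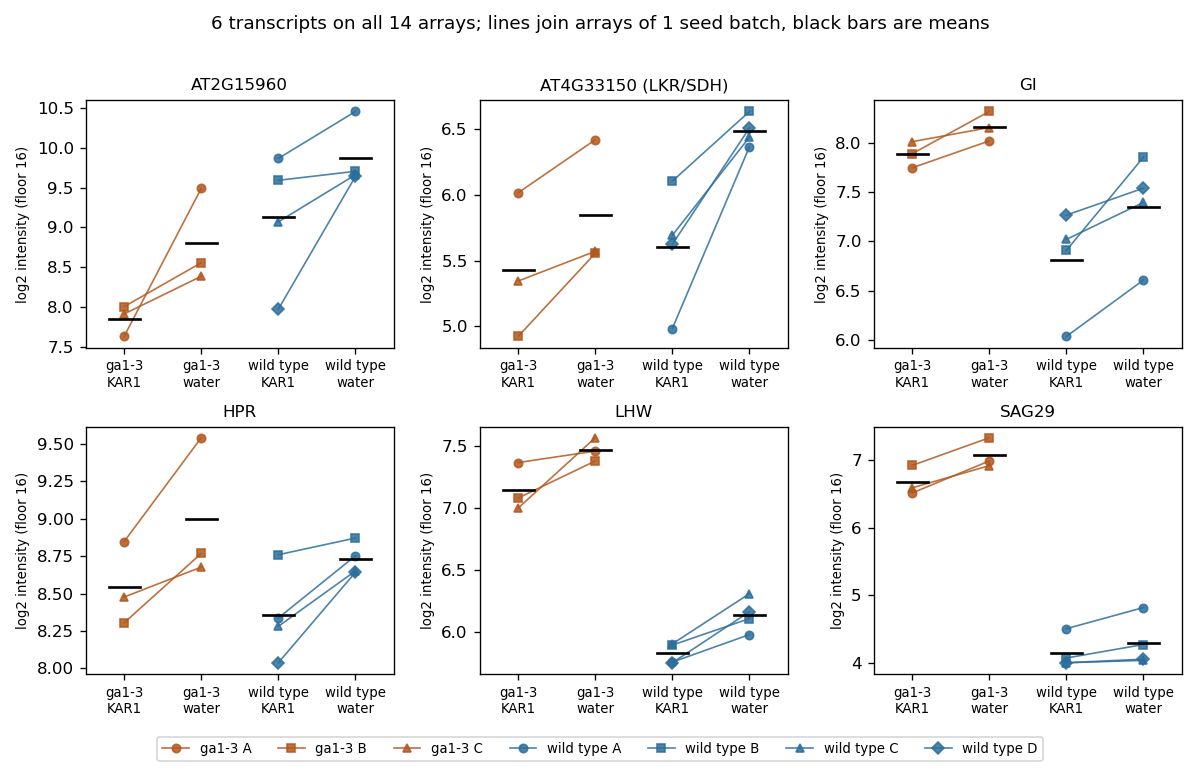
Log2 intensity (vertical, floor 16) of 6 transcripts on all 14 arrays by group (horizontal), with lines joining the arrays of 1 seed batch and black bars at the group means. Every line slopes upward to water; LHW and SAG29 lie higher in ga1-3, and AT2G15960 lies lower there.

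The 3 probe sets just inside the mean threshold were AT2G04540 (-0.252), SIZ1 (-0.251) and IQD28 (-0.251), and the 3 just outside it were AT3G01520 (-0.248), AT1G78560 (-0.246) and DIM1B (-0.246). A further 99 probe sets with 1 gene met the mean threshold but had 1 of the 7 differences at 0 or above.

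The size of the difference varied with the seed batch. Over the 90, the median difference was -0.43, -0.35 and -0.32 in ga1-3 batches A to C and -0.22, -0.25, -0.30 and -0.38 in wild type batches A to D. The deepest of the 7 differences was that of ga1-3 batch A for 33 of the 90. Detected probe sets in general also spread most in that batch: over the 9592, the middle 50% of differences ran from -0.16 to 0.19 there, and from -0.12 to 0.13 in wild type batch D. The mean difference was lower in ga1-3 for 68 of the 90 and lower in wild type for 22. The median of the genotype means was -0.36 in ga1-3 and -0.29 in wild type. Over the 9592 detected probe sets it was also lower in ga1-3, at -0.026 against -0.003. How all probe sets split between the genotypes was not counted, so the 68 and 22 have no share to be read against. The rule used these differences, so no test of the genotype on them is given. GI and AT4G33150 were among those with the lower mean difference in wild type (GI -0.28 in ga1-3 and -0.54 in wild type).

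**Figure D3:**
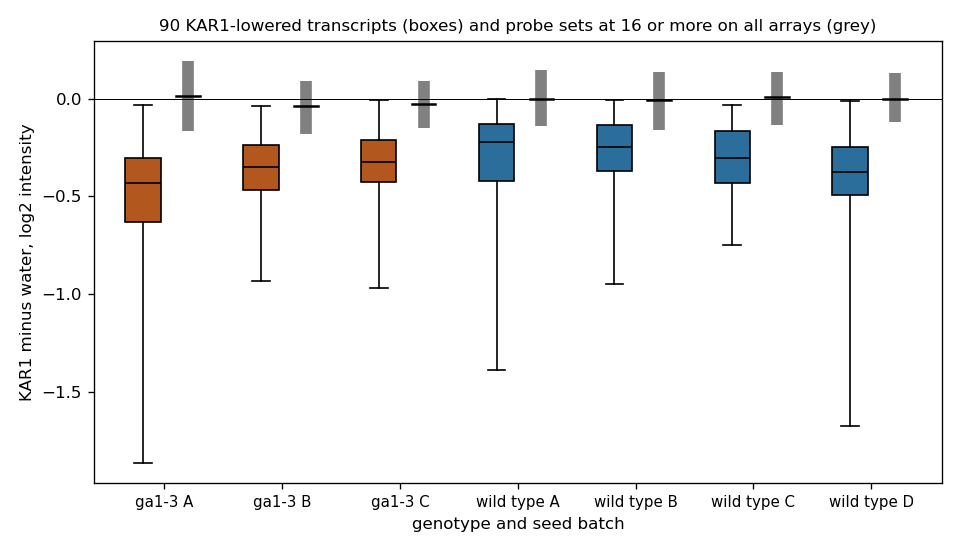
KAR1 minus water in log2 intensity (vertical) for the 90 probe sets by genotype and seed batch (horizontal); boxes span the middle 50% with the median, whiskers the full range, and grey bars the middle 50% and median of the 9592 probe sets at 16 or more on all arrays. The boxes lie lowest in ga1-3 batch A, at a median of -0.43, and the grey bars centre near 0 in each batch.

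**Figure D4:**
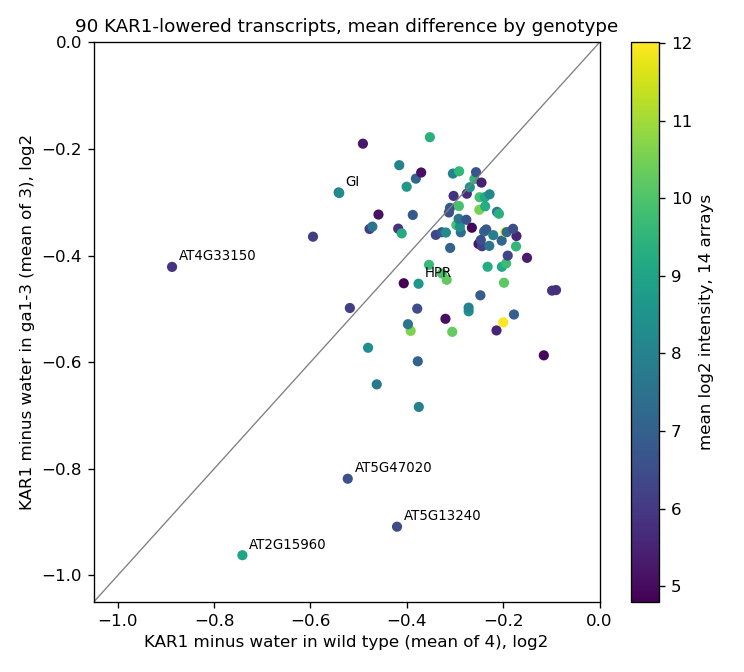
Mean KAR1 minus water in ga1-3 (vertical) against that in wild type (horizontal), both in log2 intensity, for the 90 probe sets, coloured by mean level; the line marks equal differences. Below the line, where the difference was lower in ga1-3, lie 68 points, and AT4G33150 and GI lie above it. The split over all probe sets was not counted.

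KAR1 and water arrays did not overlap in ga1-3 for 44 of the 90 (2.4% of all probe sets lay lower without overlap) and in wild type for 18 (0.462%). In both genotypes at once this held for 8 (0.0923%): AT3G27350, AT3G58060, AT3G03230, AT5G25280, LHW, AT5G16460, AT5G07020 and AT3G03620. These shares are over all 22746 probe sets, and those under the floor of 16 on all arrays cannot meet the condition. The share over the 9592 detected on all arrays was not counted. In limma on all 14 arrays, without block, 0 of the 90 were called lower for the mean KAR1 effect (Benjamini-Hochberg adjusted p under 0.05), against 1 probe set or 0.0044% of all. With the seed batch as block 6 of the 90 were called, against 21 or 0.0923% of all. The rule used the same contrast, so nothing is read from these counts.

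The genotype comparison does not use the KAR1 differences, but the rule also bears on level. A difference under 0 needs a water array above the floor of 16, in all 7 pairs. Transcripts under the floor throughout either genotype could therefore not be among the 90, though they count in the shares over all probe sets. For each seed batch the KAR1 and the water array were averaged, and the 3 means of ga1-3 were tested against the 4 of wild type with limma over all 22746 probe sets. Of the 90, 10 were higher in ga1-3 and 21 were lower (11.1% and 23.3%), while 59 did not pass. Of all probe sets 20.1% were called higher and 19.1% lower. Of the 9592 detected on all arrays 23.2% were called higher and 11.2% lower. The median difference was -0.09 over the 90, against 0.00 over all and 0.13 over the detected ones. After centring each array on its detected probe sets, which moved the median of all probe sets from 0.00 to -0.15, 8 were higher and 28 lower (12% and 32.3% of all). The seed batch means did not overlap between genotypes for 12 of the 90 that were higher and 23 that were lower (26.1% and 26.4% of all).

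SAG29 had the largest genotype difference of the 90. Its KAR1 and water arrays read 6.51, 6.92 and 6.59 and 6.99, 7.33 and 6.92 in ga1-3, against 4.5, 4.07, 4.0 and 4.0 and 4.82, 4.27, 4.04 and 4.05 in wild type. All 6 ga1-3 arrays lay above all 8 wild type arrays, most of which were near the floor. It was 6.51-fold higher in ga1-3 (log2 2.70 ± 0.21 SE, adjusted p = 0.000197), and by 2.66 with values raised to the floor. LHW was 2.50-fold higher (1.32 ± 0.10, adjusted p = 0.000182), at seed batch means of 7.31 in ga1-3 and 5.99 in wild type.

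Of the other probe sets with a symbol, 3 were higher in ga1-3. GI was higher by 0.94 ± 0.28 (adjusted p = 0.0356), with means of 8.02 in ga1-3 and 7.08 in wild type, and UGT76C1 by 0.79 ± 0.19 (0.0174). SIZ1 was higher by 0.59 ± 0.14 (0.0154) in the probe set that met the rule, and the genotype difference of its second probe set is not given here. Of those with a locus name, AT4G24110 was higher by 1.20 ± 0.28 (0.0171), AT1G30600 by 1.15 ± 0.27 (0.0178), AT5G65530 by 1.14 ± 0.23 (0.00904) and AT2G36220 by 0.61 ± 0.19 (0.0391). With each of the 7 seed batches left out in turn, GI lost its call in 4 of the fits and AT2G36220 in 5. UGT76C1, SIZ1, AT4G24110 and AT1G30600 lost theirs in 2, without ga1-3 B and without ga1-3 C.

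Lower in ga1-3 were SKP2A, at means of 8.67 in ga1-3 and 9.53 in wild type (-0.86 ± 0.13, adjusted p = 0.00347), and the neighbours AT3G03230 and AT3G03240. AT3G03230 read 5.90, 6.24 and 6.19 on KAR1 and 6.85, 6.42 and 6.48 on water in ga1-3, against 7.24, 7.24, 7.24 and 7.03 on KAR1 and 7.36, 7.46, 7.43 and 7.48 on water in wild type. All ga1-3 arrays lay below all wild type arrays, at a difference of -0.96 ± 0.08 (adjusted p = 0.000269). AT3G03240 had a difference of -1.02 ± 0.24 (adjusted p = 0.0176).

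The remaining transcripts with the largest differences downward carry a locus only. AT2G27940 had -1.12 ± 0.16 (adjusted p = 0.00209) and AT1G19530 -1.14 ± 0.18 (0.00356). AT2G04540 had -1.25 ± 0.26 (0.00973), AT3G50790 -1.23 ± 0.27 (0.0133), AT4G14385 -1.21 ± 0.30 (0.0191) and AT2G15960 -1.17 ± 0.31 (0.0255). Leaving out 1 seed batch ended the call of AT3G50790 and AT4G14385 in 2 fits, without ga1-3 B and without ga1-3 C, and that of AT2G15960 in 4. In AT2G04540, AT3G50790 and AT4G14385 the mean of ga1-3 batch A lay closer to wild type than those of batches B and C. Of the 13 probe sets with a symbol, 5 were higher (SAG29, LHW, GI, UGT76C1 and SIZ1), 1 was lower (SKP2A), and the other 7 did not pass. For comparison, 20.1% of all probe sets were called higher and 19.1% lower, and 23.2% and 11.2% of those detected on all arrays. Having a symbol is all that sets these 13 apart, so nothing is read from their counts.

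The arrays were also split into 3 clusters, a number set in advance, by their spiked control probe sets, and genotype and cluster are largely tied. Seed batches A and B of wild type form 1 cluster and batches B and C of ga1-3 another. The remaining cluster is mixed, with batch A of ga1-3 beside batches C and D of wild type. With the cluster as block, where the difference rests on ga1-3 A against wild type C and D, 2 of the 90 were higher and 3 lower (3.96% and 4.82% of all, 1.73% and 1.03% of the detected ones). They were SAG29 (2.82, adjusted p = 0.0121), LHW (1.38, 0.0133), AT3G03240 (-1.70, 0.0118), AT3G03230 (-0.92, 0.0218) and AT2G27940 (-1.20, 0.0492). In this fit ga1-3 rests on 1 seed batch, and the spread that the p-values use comes from the differences between batches within the clusters, so batch A of ga1-3 is assumed to vary like the others. The leaf gene RCA, the only one measured of 3 fixed leaf markers, was higher in ga1-3 (1.26 ± 0.13, adjusted p = 0.000648) at low intensity; its part in these differences was not tested.

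Wild type seed batches differed widely in some of these transcripts and little in others. The highest minus the lowest of the 4 wild type batch means was 1.72 in AT5G24710 and in AT2G07705, 1.39 in AT5G03380 and 1.36 in AT2G15960. It was 0.06 in AT5G45310, 0.09 in AT3G03230, 0.11 in SKP2A and 0.12 in AT3G53400. The median range was 0.43 over the 90 and 0.45 over the 9592 detected probe sets. Batch A lay farthest from the mean of the 4 for 52 of the 90 (57.8%), and for 56.7% of the detected ones. In AT5G24710 batch A was low (4.0 on KAR1 and 4.31 on water), and in AT2G07705 it was high (6.15 on KAR1 and 6.16 on water).

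The lists of genes fixed for related pathways held 177 loci, of which 26 were measured by a probe set with 1 gene. For the 8 genes of karrikin signalling, the 28 of abscisic acid signalling and the 5 of dormancy, the annotation used here names no such probe set. Of the clock list 1 of 3 measured genes was among the 90 (GI). None was among them of 8 measured LEA and dehydration genes, 2 seed storage and oil body genes, 4 light signalling genes or 4 gibberellin genes. Of these, COR47, COR15A, COR15B and GID1B lay under the floor of 16 on all 14 arrays, so the rule could not take them. Of all 13513 probe sets with 1 gene the rule took 90, so nothing is read from absences in lists this short. LEA4-5, a protein of the dry seed, averaged -0.01 on KAR1, and PAP85 -0.06. HIS1-3 of the LEA and dehydration list averaged -0.45 and was lower in 6 of 7 pairs, and XERICO of the abscisic acid metabolism list averaged -0.45 and was lower in 7 of 7. Both were left out by name. The 4 measured light signalling genes, HYH, AT3G52740, AT3G44450 and AT2G16365, were higher on KAR1 in 7 of 7 pairs. Between genotypes, 1 of the 3 clock genes was higher (GI) and none lower. Of the LEA and dehydration genes 2 were lower, LEA4-5 and HIS1-3, and 1 passed as higher, COR15A, which lay between 4.7 and 5.4 in intensity on all 14 arrays, under the floor of 16. Further, of the 4 light signalling genes 2 were higher, AT3G52740 and AT3G44450. Of the 4 gibberellin genes 2 were higher, GID1C and, close to the limit in limma, GID1A (adjusted p = 0.0492). Over all probe sets 20.1% were called higher and 19.1% lower, and over the detected ones 23.2% and 11.2%, so nothing is read from these few calls.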

How the data were processed

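Each array was deposited as linear intensity values from 3.5 to 39328.1, which the authors computed with GCRMA per the submitters' processing notes; its version and whether all arrays were normalized together are not given in the sources used here. RNA was labelled from the 3' end, per the labels' protocols. Arrays give no depth; their number limits precision. The 64 control probe sets were left out of the tests. Of 22746 probe sets, 13513 have 1 gene in the platform annotation, 503 several, and 8730 none listed; 13436 matched the TAIR10.1 table. The files name no genome build, so no coordinates are given, and sequences were not used here.

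Tests used log2 intensity without a floor and limma 3.58.1 in R 4.3.3 (lmFit, eBayes with trend and robust, two-sided, Benjamini-Hochberg over all probe sets, calls at an adjusted p under 0.05). The genotype fit had 7 seed batch means and 5 residual degrees of freedom. On simulated data for that comparison, over 22746 probe sets, it recovered 68 of 100 changes of 1 and 96 of 100 changes of 2 on the log2 scale. It also called 7 unchanged probe sets. The simulated batches varied independently and few probe sets were changed, so the tie of genotype to cluster in the real data was not covered. The KAR1 fit had 14 arrays, without block and, since the labels tie arrays to seed batches, with the seed batch as block. Deviations of paired arrays from their group means correlated at 0.507 to 0.855; ga1-3 C correlated more with another batch (0.632) than within its pair (0.557), and ga1-3 B nearly as much (0.568, against 0.61). P-values of the genotype fit measure the spread between seed batches. Those of the KAR1 fit without block measure the spread between arrays within a group and ignore the pairs. With the block they measure the spread of the paired differences. The members, gene lists and tests were chosen with earlier results of these data known. Named are the 24 lowest mean differences, up to 8 genotype calls per direction by size whose batch means do not overlap, the 3 probe sets on each side of the threshold, up to 4 per list or role, and the 4 widest and narrowest over wild type batches. Those named beyond this rule (other genes with a symbol, the 8 without overlap in both genotypes, second probe sets, list genes) were chosen after their values were seen. Promoter motifs, which were also planned, were not analysed here.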

Additional observations from a re-analysis of the deposited data

Results flagged for a closer look

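In the wild type groups of 4 arrays, 94 sets of values of the named transcripts were searched for 1 array far from the other 3 (a gap to the nearest that takes up most of the range, by Dixon's critical value), which chance gives in about 1 of 20 sets. There were 6, of which 5 lay in seed batch A, and 5 of the 6 also passed without the floor of 16, a setting added after seeing the data. Some transcripts, AT2G15960 and AT5G24710 among them, were named for their wide range over wild type batches. The KAR1 and water sets also share their seed, so the 6 cannot be read against 1 of 20. Batch A lay farthest from the wild type mean for 56.7% of the probe sets detected on all arrays. On water, batch A was high for AT2G15960, at 10.46 against 9.64 to 9.71, and for AT4G14385, at 8.19 against 7.66 to 7.71. It was low for AT5G24710, at 4.31 against 5.84 to 5.95, and for the ubiquitin protease gene UBP15, at 5.52 against 6.57 to 6.71. On KAR1, batch A was high for SAG29, at 4.5 against 4.0 to 4.07. That is the one which rests on the floor: without it the other 3 spread from 3.72 to 4.07, and batch A no longer stands apart. Also on KAR1, batch D was low for AT3G03230, at 7.03 against 7.24 in the other 3. No cause was tested.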

How the results depend on the processing

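The rule gave 90 probe sets, and 96, 76 and 78 with a floor of 8, a floor of 32 and centred arrays, of which 90, 76 and 75 were shared; with 6 of the 7 pairs it gave 98 to 162, most without wild type batch B. In the genotype comparison the counts of 10 higher and 21 lower were 2 and 3 with the spike-in cluster as block, and 3 to 12 higher and 10 to 33 lower with 1 seed batch left out; without ga1-3 B or C they were 3 and 10, and without ga1-3 A 12 and 33. For 18 named genotype differences, 227 of 270 repeats kept direction and call, 43 lost the call (13 with the cluster block, 9 each without ga1-3 B or C) and 0 turned direction; LHW, SAG29, AT3G03230 and AT2G27940 were called under all 15 other settings, of which the cluster block has ga1-3 from 1 seed batch only. These 18 were named because the main fit had called them, and the repeats use the same arrays. Kept calls and directions are therefore no independent support. Letters as a replicate block, which name different seed in each genotype, gave 11 higher and 16 lower. For KAR1, the seed batch as replicate block gave 21 probe sets lower and 6 of the 90 called, against 1 and 0; plain eBayes gave 0 lower, and leaving out a batch 0 to 1, with 0 of the 90 called. The cause of these changes was not tested. Signal near the floor limits SAG29 in wild type and AT3G03240 in ga1-3.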
